A study of Mus musculus with 4 samples.

Results

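The adrenergic receptors are the cell-surface proteins through which adrenaline, noradrenaline and their synthetic relatives act, and phenylephrine, the drug applied to the cardiac fibroblasts of this study, is an agonist of the α1 class. A list of 8 mouse receptor genes was examined, namely *Adra1a*, *Adra1b*, *Adra1d*, *Adra2a*, *Adra2b*, *Adra2c*, *Adrb1* and *Adrb3*. Every probe set that carried 1 of these symbols was taken, which gave 15 of the 45037 probe sets on the arrays and 7 of the 8 genes. *Adra1d* was not analysed here, and neither were adrenergic receptor genes outside the list.

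Adrenergic receptors span the membrane and hand their signal to a G protein inside the cell. The α1 receptors couple to Gq/11, which activates phospholipase C and releases calcium from internal stores, the α2 receptors couple to Gi/o, which restrains cyclic AMP synthesis, and the β receptors couple to Gs, which raises cyclic AMP. In the heart, α1 receptors are known above all from cardiomyocytes, where phenylephrine is a standard hypertrophic stimulus.

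Cardiac fibroblasts from male mice 3 months old were kept in culture for 4 days, and total RNA was pooled from 3 batches of cells for each of 4 Affymetrix arrays. One array each measured untreated WT cells, WT cells given 30 µM phenylephrine for 72 h, untreated *PMCA4*-/- cells and *PMCA4*-/- cells given the same phenylephrine treatment. *PMCA4*-/- mice carry a targeted deletion in *Atp2b4*, the gene of a plasma membrane pump that moves calcium out of the cell, in every tissue and not in fibroblasts alone, and the controls of the study's knockout mice were WT littermates. Each condition had 1 array, so the differences between arrays have no replicate check, and genotype cannot be told apart from any other difference between the WT and *PMCA4*-/- cultures. Intensities are given on the linear scale of the PUMA estimate, with the Robust Multiarray Average (RMA) estimate of the same arrays beside them.

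The 4 arrays shared a median PUMA intensity of 34.0, and their RMA medians lay between 72.5 and 73.0. Pearson correlations of log2 intensity over the 11424 genes whose mean exceeded the median of all probe set means were 0.995 within a genotype and 0.857 to 0.860 between genotypes. The only probe set named *Atp2b4* read 19.6 in untreated WT, 23.3 in treated WT, 31.6 in untreated *PMCA4*-/- and 37.9 in treated *PMCA4*-/- cells by PUMA, around or below the array median, and so gave no check of the genotype labels. Fibroblast markers were bright, with 10 of 12 above the median on all 4 arrays. Of the 9 cardiomyocyte markers measured, 0 reached it on all 4 arrays, *Myh6*, *Myh7* and *Tnnt2* among them. By PUMA *Tnni3* was above it in untreated and treated WT cells, at 37.9 and 40.2. It was below it in *PMCA4*-/- cells, at 9.49 and 13.7, and RMA placed it on the same sides.

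By the PUMA estimate all 7 measured receptors were dim. None of the 60 readings (15 probe sets on 4 arrays) exceeded the median of its array, and the highest stood at 48.5% of it. The readings ran from 0.0657 to 16.5, which placed them between percentiles 0.546 and 40.6 of all probe sets on their arrays, and 24 of the 60 lay under 1. RMA gave readings from 6.72 to 85.8, of which 3 of 60 exceeded the array median, all 3 from a single *Adra2c* probe set. The other 14 probe sets were below the median on every array by both estimates, and 0 of the 7 genes had a probe set above it on all 4 arrays. In RNA from a whole culture, a receptor carried by few cells and a receptor with little RNA in every cell cannot be told apart.

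A second yardstick on the same arrays came from 85 probe sets of olfactory, vomeronasal and taste receptors, genes known from sensory epithelia. Their PUMA medians were 1.53 to 2.28 on the 4 arrays, and the highest of them reached 28.9 to 46.0. The median over the 15 adrenergic probe sets, each averaged over the arrays, was 1.89, against 1.85 for the sensory receptors. By RMA the same medians were 21.9 and 16.5, and 12 of the 15 adrenergic probe sets exceeded the sensory median, compared with 8 of 15 by PUMA. None exceeded the brightest sensory receptor by either estimate. By PUMA 0 of the 85 sensory probe sets exceeded the array median in untreated WT and 1 in treated WT cells. In untreated and in treated *PMCA4*-/- cells 2 did. By RMA 1 of the 85 exceeded it on each array. *Adra2c* 1422335_at, at an RMA mean of 75.8, lay above 98.8% of the sensory probe sets. The adrenergic probe sets therefore lay no higher than the range that these sensory genes spanned on the same arrays.

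**Figure D1:**
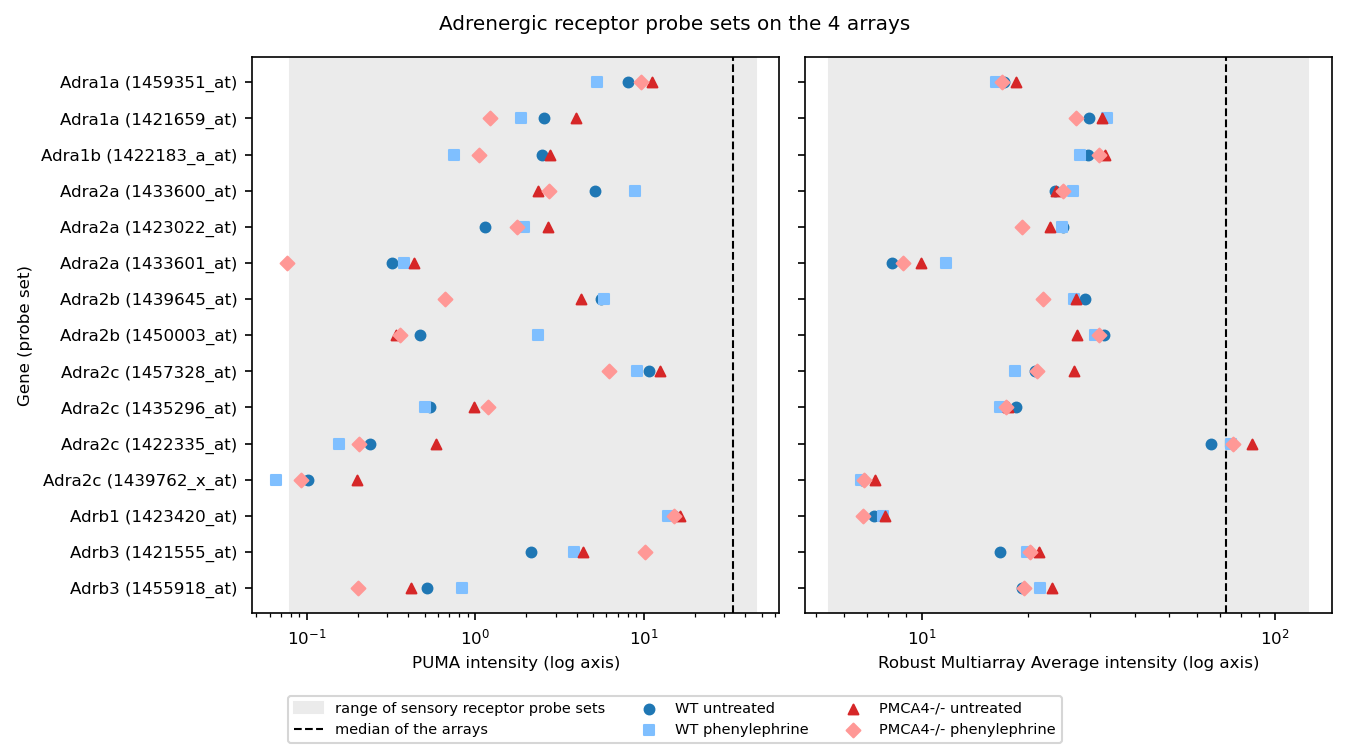
Intensity of each adrenergic receptor probe set (rows) on the 4 arrays (symbols), by PUMA (left) and RMA (right), on log axes. The grey band is the range of 85 sensory receptor probe sets and the dashed line the mean of the array medians; 0 of 60 PUMA readings and 3 of 60 RMA readings exceeded the median of their array.

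The α1 receptors are the targets of phenylephrine. *Adra1a*, a Gq-coupled receptor known from cardiomyocytes and smooth muscle, had 2 probe sets. The brighter by PUMA, 1459351_at, read 8.07 in untreated WT, 5.27 in treated WT, 11.2 in untreated *PMCA4*-/- and 9.64 in treated *PMCA4*-/- cells. Both *PMCA4*-/- readings were above both WT readings, all at percentiles 27.7 to 35.7. RMA put the same probe set at 17.1, 16.2, 18.4 and 16.9 in that order of arrays, where the genotypes overlapped. The other, 1421659_at, read 2.55, 1.88, 3.95 and 1.21 by PUMA, lower with phenylephrine in each genotype. By RMA it read 29.7, 33.5, 32.3 and 27.4, higher with phenylephrine in WT and lower in *PMCA4*-/- cells. The 2 probe sets thus gave *Adra1a* no shared order of the 4 arrays.

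*Adra1b*, the other α1 receptor measured, couples to Gq as well. Its single probe set, 1422183_a_at, read 2.47 in untreated and 0.748 in treated WT cells, and 2.76 in untreated and 1.06 in treated *PMCA4*-/- cells by PUMA. Both treated readings were under both untreated ones, at percentiles 10.2 and 14.8 against 21.5 and 21.3. RMA gave 29.5 and 28.0 for WT, and 33.0 and 31.8 for *PMCA4*-/- cells, so the treated cells were again lower within each genotype, by 0.08 and 0.05 on the log2 scale. No fold is given for the PUMA readings, because both sides of each pair were below the array median.

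The α2 receptors act through Gi/o and are best known as the autoreceptors of sympathetic nerve endings. *Adra2a* had 3 probe sets, of which 1433600_at was the brightest by PUMA at 5.10 in untreated WT, 8.90 in treated WT, 2.36 in untreated *PMCA4*-/- and 2.75 in treated *PMCA4*-/- cells. Both WT readings were above both *PMCA4*-/- readings. RMA did not separate the genotypes for this probe set, with 23.8, 26.8, 24.0 and 25.1. Its probe set 1423022_at read 1.14, 1.94, 2.71 and 1.76 by PUMA, and 25.2, 25.0, 23.1 and 19.3 by RMA. The third, 1433601_at, read at most 0.430 by PUMA and at most 11.7 by RMA.

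*Adra2b* had 2 probe sets. By PUMA 1439645_at read 5.55 in untreated WT, 5.83 in treated WT, 4.22 in untreated *PMCA4*-/- and 0.659 in treated *PMCA4*-/- cells, the last being the lowest of the 4. RMA also placed the treated *PMCA4*-/- cells lowest, with 28.9, 26.9, 27.2 and 22.1 in the same order. For 1450003_at the PUMA readings were 0.469, 2.36, 0.338 and 0.357, highest in treated WT cells, whereas the RMA readings were 32.8, 31.0, 27.5 and 31.7, highest in untreated WT cells.

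*Adra2c*, the third α2 receptor, was covered by 4 probe sets whose readings together spanned a wider range than any of them did between conditions. The PUMA readings of 1457328_at were 10.7 in untreated WT, 9.17 in treated WT, 12.5 in untreated *PMCA4*-/- and 6.21 in treated *PMCA4*-/- cells. Those of 1422335_at were 0.237, 0.155, 0.581 and 0.203, all at or under percentile 8.26. RMA ranked the same pair in the opposite order. It gave 1422335_at 66.0, 75.2, 85.8 and 75.9, which was up to 118% of the array median and the only receptor probe set above it, on 3 of 4 arrays. It gave 1457328_at 20.9, 18.4, 27.0 and 21.2. Of the remaining pair, 1435296_at read at most 1.18 and 1439762_x_at at most 0.199 by PUMA. Untreated *PMCA4*-/- cells were the highest of the 4 arrays for 1457328_at and 1422335_at in both estimates.

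The β receptors act through Gs, and *Adrb1* is the main β receptor of cardiomyocytes. Its only probe set, 1423420_at, was the brightest of the 15 by PUMA at 15.1 in untreated WT, 13.99 in treated WT, 16.5 in untreated *PMCA4*-/- and 15.1 in treated *PMCA4*-/- cells, at percentiles 38.8 to 40.6. By RMA it was among the dimmest, at 7.31, 7.78, 7.87 and 6.83, or percentiles 1.24 to 2.77. Its PUMA readings varied little between conditions, and in both estimates the untreated *PMCA4*-/- cells read highest.

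*Adrb3*, known for its role in adipose tissue, had 2 probe sets. By PUMA 1421555_at read 2.13 in untreated WT, 3.87 in treated WT, 4.36 in untreated *PMCA4*-/- and 10.1 in treated *PMCA4*-/- cells, higher with phenylephrine in each genotype and higher in *PMCA4*-/- cells under each treatment. RMA gave it 16.7, 19.9, 21.5 and 20.2, in which the treated *PMCA4*-/- cells were lower than the untreated ones. The PUMA readings of 1455918_at were 0.515, 0.832, 0.416 and 0.202, lowest in the treated *PMCA4*-/- cells, and its RMA readings were 19.2, 21.5, 23.3 and 19.5. Of the 6 adipocyte markers measured, 2 were above the array median on all 4 arrays, *Fabp4* and *Pparg*. That was 33.3% of them, where 51.8% of all 20586 genes were above it, and the other markers were below it on every array.

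Taking the brightest probe set of each gene, PUMA ordered the receptors as *Adrb1*, *Adra2c*, *Adra1a*, *Adrb3*, *Adra2a*, *Adra2b* and *Adra1b*. *Adrb1* read above the others on every array, neighbours from *Adra2c* to *Adra1b* overlapped across the 4 arrays, and the order is one of probe brightness, which also depends on the probes and is not an order of RNA levels. Across the 15 probe sets the mean PUMA and RMA readings had a Spearman rho of -0.0857, a description over probe sets of the same arrays, some of which share a gene. Over all 45037 probe sets rho was 0.907. The 2 estimates thus ranked the probe sets alike over the whole array but not within this small dim group.

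**Figure D2:**
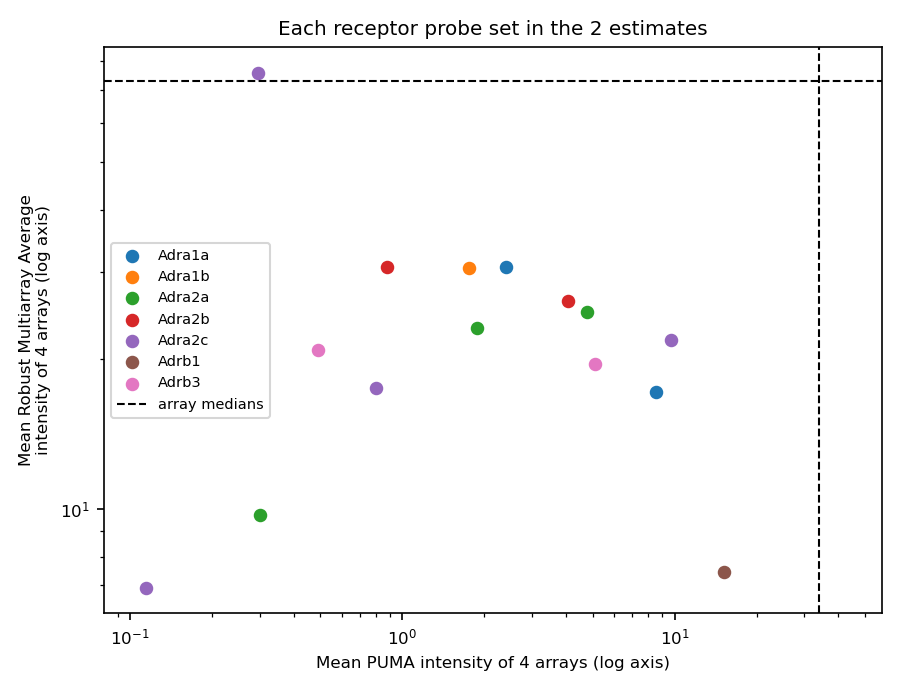
Mean intensity over 4 arrays of each of the 15 adrenergic receptor probe sets by PUMA (x axis) and RMA (y axis), on log axes, coloured by gene, with the array medians dashed. The probe set of *Adrb1* is brightest by PUMA and second dimmest by RMA, and 1 *Adra2c* probe set is above the RMA median.

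The first comparison asked how receptor RNA differed between *PMCA4*-/- and WT fibroblasts. No receptor entered the PUMA comparison, since none had a mean above the median that was required of counted genes. Among the 11424 genes that did, 10.0% were at least 2-fold apart between the untreated arrays and 10.6% between the phenylephrine arrays. By RMA, with every probe set kept, 0 of 15 receptor probe sets were 2-fold apart in either pair, where 4.65% and 4.78% of all 20586 genes were. Their log2 differences, *PMCA4*-/- minus WT, ran from -0.25 to 0.38 in untreated cells and from -0.40 to 0.21 in treated cells, with 11 and 8 of 15 above 0, against 59.7% and 53.0% of the 21154 probe sets below the median on all 4 arrays. The widest were *Adra2c* 1422335_at at 0.38 without phenylephrine, and *Adra2a* 1433601_at at -0.40 with it. *Adra2a* 1433601_at was 0.27 without phenylephrine, so the sign of that difference turned between the treatments.

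The second comparison asked whether phenylephrine changed the RNA of adrenergic receptors. By RMA 0 of 15 probe sets were 2-fold apart in WT or in *PMCA4*-/- cells, where 0.00972% and 0.0243% of all 20586 genes were. In WT cells the log2 differences, treated minus untreated, ran from -0.18 to 0.51 with a median of -0.01, and 8 of 15 were below 0, as were 49.3% of all 45037 probe sets (median 0.00). In *PMCA4*-/- cells they ran from -0.34 to 0.20 with a median of -0.16, and 13 of 15 were below 0. Of all probe sets 49.3% were below 0 in that pair (median 0.00), and of the 21154 probe sets below the median on all 4 arrays 53.4% were (median -0.02). The 15 probe sets are few and some share a gene, and the count was not tested. The difference between the genotypes was not tested. Over the 11424 counted genes, 0.473% in WT and 0.508% in *PMCA4*-/- cells were at least 2-fold apart by PUMA.

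A fit of genotype and treatment to all 4 arrays at once with limma, adjusted by the Benjamini-Hochberg method over all genes tested, called 50.3% of the 11424 counted genes for genotype and 0.0% for phenylephrine, with 458 genes at an unadjusted p under 0.05 for phenylephrine. Its error joins the spread of 1 difference between 2 pairs of arrays with a spread pooled over the genes tested. The pooled part had 2.96 degrees of freedom and the gene's own part 1. Neither part measures the spread between cultures. By PUMA no receptor passed the filter and none was tested. By RMA *Adra2c* passed it through 1422335_at, at a log2 difference of 0.20 ± 0.10 (SE, 4 arrays), *PMCA4*-/- minus WT (limma adjusted p = 0.165), in a fit that called 57.7% of 11713 genes for genotype. The other 6 receptors were tested when dim genes were let in. With all 20586 genes by RMA, the fit called 23.9% of genes for genotype and 0 of the 7 receptors, and 0 receptors had an unadjusted p under 0.05 for genotype or for phenylephrine. *Adra1b* came nearest, at a log2 difference of 0.17 ± 0.06 (SE, 4 arrays), *PMCA4*-/- minus WT, with limma's adjusted p = 0.127. For phenylephrine the smallest adjusted p among the 7 was 0.964. With all genes by PUMA, 0 receptors were called for either effect, as was 0.0% of all genes, with 2 of 7 receptors at an unadjusted p under 0.05 for genotype and 2 for phenylephrine, beside 5394 and 1198 of all genes. There *Adrb3* stood at 1.21 ± 0.15 for genotype through 1421555_at (limma adjusted p = 0.145). *Adra1b* stood at -1.56 ± 0.15 for phenylephrine (limma adjusted p = 0.798), and both rested on readings below the array median. The RMA fit with all genes took *Adrb3* through 1455918_at, at 0.07 ± 0.13 for genotype. *Adra1a*, *Adra2b* and *Adra2c* also had different probe sets in the PUMA and RMA fits with all genes.

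Other receptors that couple to G proteins were read on the same arrays, from a list of 49 receptors for peptides, lipids and amines of which 46 had a probe set. Of these, 15 were above the array median on all 4 arrays by PUMA, against 0 of 7 adrenergic receptors, and 17 against 0 by RMA. The 15 made up 32.6% of the list, below the 51.8% of all 20586 genes that were above it by PUMA. The brightest were *S1pr3*, a receptor for sphingosine 1-phosphate, at a mean of 8590, and *F2r*, the thrombin receptor, at 6005. Differences between the genotypes were present among them. *P2ry14*, a receptor for UDP-glucose, read 155 and 154 in untreated and treated WT cells and 3.28 and 3.27 in *PMCA4*-/- cells, at least 4.55-fold lower without phenylephrine when the dim side is raised to the array median.

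**Figure D3:**
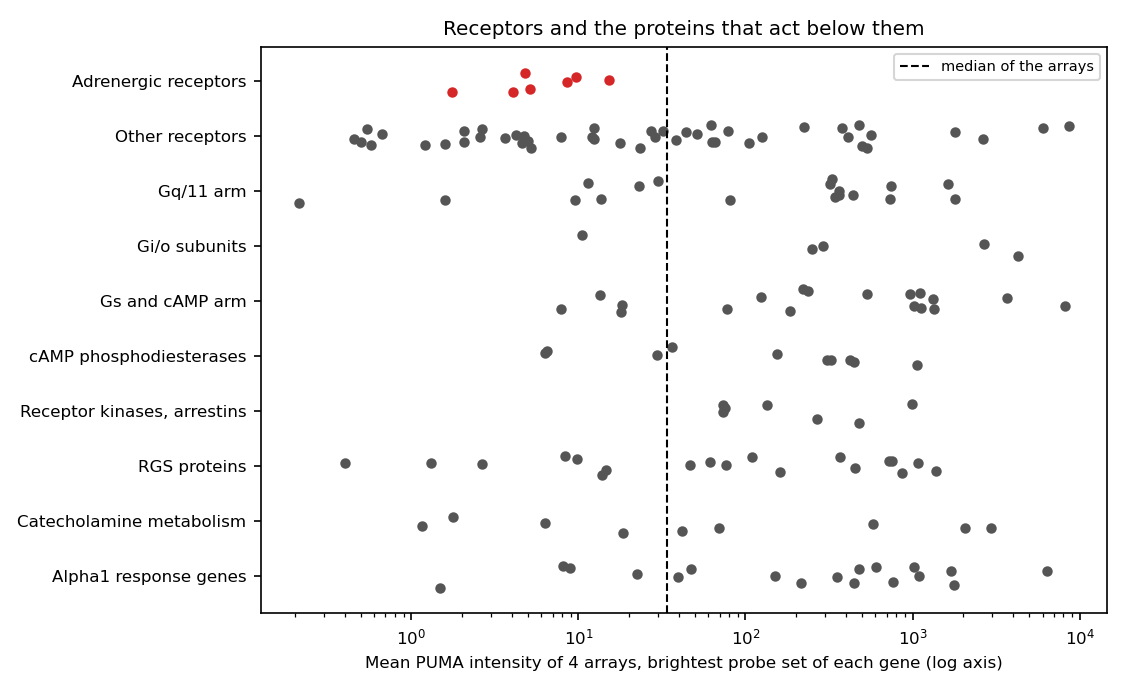
Mean PUMA intensity over 4 arrays of the brightest probe set of each gene (log axis), for the adrenergic receptors (red) and the other receptor and signalling lists (grey, rows). All 7 adrenergic receptors lie left of the dashed array median, which 15 of 46 other receptors and 51.8% of all 20586 genes exceeded on all 4 arrays.

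Many genes of the proteins that carry adrenergic signals onward were above the array median. Of the Gq/11 arm 11 of 18 genes were above it on all 4 arrays, or 61.1%, where 51.8% of all 20586 genes were. They included *Gnaq*, the Gq subunit itself, at a mean of 1790. Genotype calls by limma, adjusted over all 11424 genes, went 6 up and 2 down among its 11 counted genes, where 24.6% of all counted genes went up and 25.7% down. *Itpr3*, a calcium channel of internal stores, was higher in *PMCA4*-/- cells, by 1.17 ± 0.14 on the log2 scale (limma adjusted p = 0.00724). *Plcb1*, a phospholipase C that Gq activates, read 107 and 119 in WT and 39.8 and 57.1 in *PMCA4*-/- cells, 2.70-fold lower without phenylephrine. Only 3 of its 5 probe sets were lower in *PMCA4*-/- cells in that untreated pair, by PUMA as by RMA. Of the Gs and cyclic AMP arm 14 of 18 were above the median on all 4 arrays, with 2 calls up and 5 down. *Gnas*, the Gs subunit, was its brightest gene at 8178. The cyclic AMP phosphodiesterases, which break the messenger down, had 4 calls up and 2 down among 7 counted genes. *Pde3b* read 237 and 227 in WT and 91.3 and 61.4 in *PMCA4*-/- cells, 2.59-fold lower without phenylephrine. *Pde7b* read 129 and 135 in WT and 507 and 524 in *PMCA4*-/- cells, 3.93-fold higher without phenylephrine.

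Of the Gi/o subunits that α2 receptors use, 4 of 5 were counted, with 1 called higher and 1 lower. Over all 11424 counted genes limma called 24.6% higher and 25.7% lower, which stands beside the calls of each list below. *Gnai1* read 554 in untreated and 603 in treated WT cells but 3.83 and 3.24 in *PMCA4*-/- cells, at least 16.3-fold lower without phenylephrine. *Gnao1* was higher, at 370 and 365 against 128 and 131. All 7 receptor kinases and arrestins, which switch receptors off, were counted, with 3 calls up and 2 down. *Grk3*, also known as β-adrenergic receptor kinase 2, read 15.4 and 15.2 in WT and 134 and 139 in *PMCA4*-/- cells, at least 3.95-fold higher without phenylephrine, and all 3 of its probe sets were higher in both estimates. Of the RGS proteins, which shorten G protein signals, 2 of 12 counted genes were called up and 4 down. *Rgs2*, which acts on Gq, fell by 0.86 ± 0.08 on the log2 scale (limma adjusted p = 0.00347). *Rgs5* read 185 and 186 in WT against 30.3 and 34.4 in *PMCA4*-/- cells.

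Some cell type markers differed between the genotypes too. Of 8 macrophage and leukocyte markers 3 were above the array median on all 4 arrays, or 37.5%, where 51.8% of all 20586 genes were. The rest were below it on every array. The summed PUMA intensity of the 8 was 626 and 695 in WT and 901 and 1022 in *PMCA4*-/- cells. Most of that gap came from *Csf1r*, at 153 and 180 against 378 and 492, the 1 of 3 counted markers that limma called. The sum of 6 adipocyte markers was 785 and 894 against 1463 and 1735. *Fabp4* carried it, at 506 and 626 against 1272 and 1500.4, while *Pparg* read 265 and 260 in WT and 187 and 227 in *PMCA4*-/- cells. The 11 smooth muscle and pericyte markers summed to 7873 to 8432 on the 4 arrays. *Pdgfrb* made up most of each sum, at 7378 and 7675 in WT and 7779 and 7159 in *PMCA4*-/- cells. The sum therefore says little of the other markers, which went both ways. *Lmod1* read 7.10 and 3.77 in WT and 190 and 210.1 in *PMCA4*-/- cells, whereas *Rgs5* was lower in *PMCA4*-/- cells. The part of these cells in the genotype differences above was not tested.

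Of the enzymes and transporters of catecholamine metabolism, 5 of 9 measured were counted, with 2 calls up and 1 down, where 50.3% of all counted genes were called. *Maoa*, which degrades noradrenaline, was higher in *PMCA4*-/- cells by 0.78 ± 0.09 (limma adjusted p = 0.00659), and *Maob* read 1054 and 1041 in WT against 95.5 and 127 in *PMCA4*-/- cells. *Th* and *Dbh*, the enzymes that make noradrenaline in sympathetic nerves, stayed below the array median on all 4 arrays.

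Genes known to respond to α1 stimulation in heart cells had no call for phenylephrine. Of 18 listed, 14 were counted, and limma called 5 higher and 5 lower in *PMCA4*-/- cells and did not call 4, beside 50.3% of all counted genes called. *Acta2*, smooth muscle actin, read 2549 in untreated and 2512 in treated WT cells, and 10268 and 10209 in *PMCA4*-/- cells. *Egr1*, an immediate early gene, read 1680 and 1499 in WT and 541 and 351 in *PMCA4*-/- cells. With phenylephrine 0 of 14 were 2-fold apart in either genotype, and limma called 0 of 14, as it did over all genes. In the other signalling lists, limma called 0 genes for phenylephrine, and the only gene 2-fold apart was the endothelin receptor *Ednra* in WT cells. Its readings there, 11.7 and 3.10, were both below the array median, it was counted through its *PMCA4*-/- readings of 113 and 137, and RMA put the WT pair at 50.6 and 49.98.

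**Figure D4:**
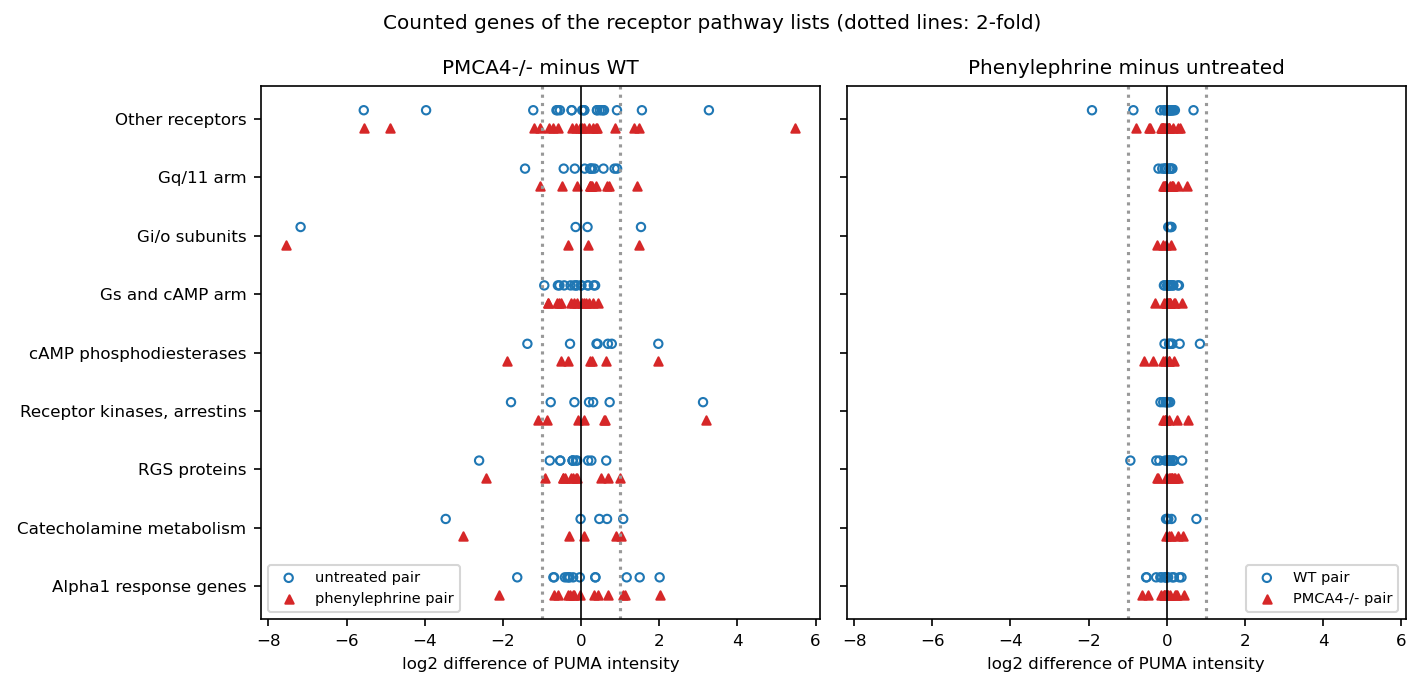
Log2 difference of PUMA intensity for the counted genes of each list (rows), *PMCA4*-/- minus WT on the left and phenylephrine minus untreated on the right, with 1 point per gene and pair of arrays and dotted lines at 2-fold. Genotype differences reach past 2-fold in every list but the Gs and cAMP arm, whereas with phenylephrine the 1 point past it is *Ednra* in WT cells, from readings of 11.7 and 3.10, both below the array median.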

How the data were processed

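RNA of cardiac fibroblasts was read on 4 arrays, 1 per condition. The authors deposited linear intensity values per probe set, estimated by PUMA in one table and by RMA in another, and their processing notes also name MAS5; versions of PUMA and RMA were not given in the sources used here. A further table repeated the PUMA estimate: its 180148 values differed from it by less than 0.0001 of each value. The deposited tables also held 12 columns of fold changes and PPLR, the authors' own comparisons, which were not used. No file gives scanner values, so detection above local background was unknown, and the array median and sensory receptors stood in for it. The number of arrays limits the precision.

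Symbols were updated through RefSeq: 37813 probe sets carried 1 symbol, 1394 several and 5820 none, giving 20586 genes. The probe set with the highest mean stood for a gene, and 11424 genes with a mean above the median (35.1 by PUMA) were counted. Genes were compared as log2 differences between arrays with a 2-fold threshold, and by limma 3.58.1 in R 4.3.3 (lmFit and eBayes, genotype and treatment, 1 residual degree of freedom, Benjamini-Hochberg, threshold 0.05). The limma script was tested on simulated data. Where 1 side was under the array median it was raised to it, giving "at least" folds, and where both were, no fold was given and log2 differences only describe the readings.

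Named genes were all receptors of the list. Of each other list they were the 2 brightest counted genes and the 2 with the largest mean genotype difference. *Ednra*, *Th*, *Dbh*, *Myh6*, *Myh7*, *Tnnt2* and *Tnni3* were named after their values were seen. No receptor was counted, so no gene of nearest pattern was sought. Receptors and lists were chosen with earlier results of these data known. Alternatives were RMA, other scalings, filters, probe set rules, a 1.5-fold threshold and an intensity trend in eBayes. RMA with no filter was added after the data were seen.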

Additional observations from a re-analysis of the deposited data

How the results depend on the processing

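The level asked of a receptor was the array median on all 4 arrays. By PUMA and by RMA 0 receptors were above it. The upper quartile as the level and all probe sets in place of the brightest also gave 0. Both ask for more than the main rule, so after its 0 they could only give 0. By RMA *Adra2c* 1422335_at was above the median on 3 of the 4 arrays. No receptor passed a filter by PUMA, so the count of receptors at least 2-fold apart could only be 0 there. RMA with the filter let in *Adra2c* alone, with 0 in each pair. With the filter dropped, PUMA gave 2 and 3 of 7 receptors between genotypes in untreated and treated cells. Of all 20586 genes 4917 and 4945 were. With phenylephrine 1 and 4 receptors were 2-fold apart in WT and *PMCA4*-/- cells, beside 3189 and 2928 of all genes. The readings of these receptors were below the array median on both sides. With RMA and no filter there were again 0.

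Counts over all genes moved more. Between untreated genotypes (1148), they were 4917 with no filter, 411 with an upper quartile filter and 2558 at 1.5-fold. Between treated genotypes (1206), they were 788 by RMA, 4945 with no filter, 440 with the upper quartile filter and 2686 at 1.5-fold. For phenylephrine in WT cells (54), they were 1 by RMA, 2 by RMA with no filter, 3189 with no filter, 5 with the upper quartile filter, 2 with dim values raised and 184 at 1.5-fold. In *PMCA4*-/- cells (58), they were 5, 5, 2928, 6, 6 and 197 in that order. The share of these calls that were higher with phenylephrine was 46.3% and 46.6%, but 0.0% and 20.0% by RMA and 60.7% and 40.3% with no filter. With the upper quartile filter it was 60.0% and 66.7%, and in WT cells 50.0% and in *PMCA4*-/- cells 33.3% with dim values raised. limma called 0 genes for genotype with no filter (5394 at an unadjusted p under 0.05) against 5746, and for phenylephrine 19 with the upper quartile filter and 37 with an intensity trend. The cause was not tested. Of 50 named genes, 34 lost a genotype call with no filter, and *Acta2*, *Grk3* and *Gnai1* were among them.

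No paired analysis was possible because each condition had 1 array and no replicate numbers. The limma fit held genotype and treatment together, with no replicate block. Leaving out an array would have removed its condition and was not run.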
